A study of Mus musculus with 6 samples.

Results

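The 10 genes described here encode the alpha tubulins Tuba1a, Tuba1b, Tuba1c, Tuba4a and Tuba8 and the beta tubulins Tubb2a, Tubb2b, Tubb3, Tubb4a and Tubb5 of the mouse. They were taken by symbol from tables of 24411 gene rows, and all 10 were found and tested. RNA was sequenced in bulk from the developing cerebellum of mice at postnatal day 18. The KO group held 3 independent replicates from animals in which a distant enhancer of the proneural gene Atoh7 was deleted, and the WT group held 3 independent replicates from wild-type animals. Libraries were assigned by their titles; the name of the table for KO replicate 3 differs by 1 letter in its allele part from those of the remaining KO tables. The labels name no strain, no Cre line and no treatment, and give the same age for both groups. The larger study concerns this enhancer in the retina. The genes were selected on KO and WT levels of these same libraries that were already known, above all the difference of Tuba1c, so their KO and WT values are given as a description and carry no p-value.

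Microtubules are hollow polymers of dimers that each pair an alpha with a beta tubulin, and they carry axonal transport, neuronal migration and cell division. Mammals encode several isotypes of each kind. Their protein cores are nearly alike, while their acidic carboxy-terminal tails differ and receive glutamate chains, glycine chains and the removal or return of a terminal tyrosine. Tuba1a and Tubb2b are prominent in young neurons, Tubb3 marks neurons, Tubb4a is abundant in myelinating oligodendrocytes and neurons, and Tubb5, Tuba1b and Tuba1c are made in many tissues.

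The libraries held 46160747 to 51947647 reads. WT replicate 3 stood apart, where the ribosomal RNA precursor Rn45s took 63.2% of gene reads and 6015125 reads remained for all other genes. Rn45s took 3.04% and 2.95% of gene reads in WT replicates 1 and 2, and 1.28% to 1.67% in KO libraries. Reads that fell outside genes made up 17.3% ± 0.291 of KO libraries and 34.3% ± 3.59 of WT libraries, and reads with several places in the genome made up 9.28% ± 0.507 of KO libraries and 7.39% ± 0.443 of WT libraries (SD, n = 3 each). The share of Rn45s and both of these shares separated every KO from every WT library. Library composition and genotype therefore cannot be told apart here. WT replicate 1 had 31134 reads of Xist and no reads of 4 Y-linked genes, while each other library had at most 10 Xist reads. Atoh7 itself had 45, 54 and 92 reads in KO replicates 1 to 3 and 72, 56 and 7 reads in WT replicates 1 to 3. The deleted element lies outside the transcribed gene, so these reads do not check the genotype. The tissue field of the labels reads retina while the design text and protocol read cerebellum. Of 12 retinal markers 4 were expressed enough to be tested and Crx was at 0. Rcvrn fell (log2 -2.42, SE 0.54, edgeR adjusted p = 0.0145) but lay near the floor. It had 6, 3 and 2 reads in KO replicates 1 to 3 and 15, 14 and 7 reads in WT replicates 1 to 3. The list of retinal markers had a summed level of 8.20 to 11.4 CPM in KO and 9.99 to 12.1 CPM in WT (CPM, reads per 1000000 reads after scaling of library sizes). The 10 Purkinje cell markers, by contrast, summed to 4202 to 5250 CPM in KO and 3723 to 4656 CPM in WT.

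The end of the coding sequence is shown here for 7 of the isotypes because it holds the tail that the modifying enzymes act on. Each line gives the last 20 codons and the stop codon, 5′ to 3′ on the coding strand, from the GENCODE transcripts of GRCm38, with in-frame codons that begin with GA, those of the acidic residues aspartate and glutamate, in capitals.
Tuba4a: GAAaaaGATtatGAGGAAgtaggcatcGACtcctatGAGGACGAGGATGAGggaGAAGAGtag
Tuba8: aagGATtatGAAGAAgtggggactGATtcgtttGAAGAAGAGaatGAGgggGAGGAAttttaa
Tubb2a: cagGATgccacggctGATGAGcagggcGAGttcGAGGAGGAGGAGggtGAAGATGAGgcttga
Tubb2b: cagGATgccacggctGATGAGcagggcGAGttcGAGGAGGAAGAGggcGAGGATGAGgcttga
Tubb3: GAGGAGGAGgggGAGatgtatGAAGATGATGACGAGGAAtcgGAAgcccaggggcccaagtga
Tubb4a: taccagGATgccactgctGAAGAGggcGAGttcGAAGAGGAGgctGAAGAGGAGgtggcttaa
Tubb5: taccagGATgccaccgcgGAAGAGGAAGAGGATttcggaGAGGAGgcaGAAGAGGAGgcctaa

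Between 10 and 12 of the last 20 codons were acidic in each of these isotypes. Tuba4a ends directly in gag, a glutamate codon, and Tuba8 in ttt, a phenylalanine codon. Among beta isotypes, the tails of Tubb2a and Tubb2b differ at synonymous bases only, and Tubb3 is the isotype whose tail ends in a lysine codon.

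Over the whole coding sequence, Tuba1a, Tuba1b and Tuba1c were 97.1% to 98.3% identical in pairs. The other 7 alpha pairs were 79.2% to 85.3% identical. Tubb2a and Tubb2b shared 96.5% of coding bases, and the other 9 beta pairs 81.4% to 84.6%.

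These likenesses bear on the values because a read that fits more than 1 place in the genome was not counted for any gene. Of windows of 100 bases along each transcript, 50% in Tuba1a, 30.9% in Tuba1b and 46.6% in Tuba1c had no identical copy in the transcripts of other genes. In the coding part alone these shares were 32.2% in Tuba1a, 14.2% in Tuba1b and 19.6% in Tuba1c. Tubb2a had 63.1% and Tubb2b 72.3% of windows to itself, and the other 5 isotypes had 100%. These shares depend on the window: with 50 bases, those of whole transcripts were 35.7% in Tuba1a, 17.8% in Tuba1b and 39.0% in Tuba1c. Counts of the 3 Tuba1 genes and of the Tubb2 pair are therefore uncertain as levels. The share of reads with several places was higher in KO than in WT libraries (above), and how many of those reads came from tubulin genes was not tested.

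**Figure D1:**
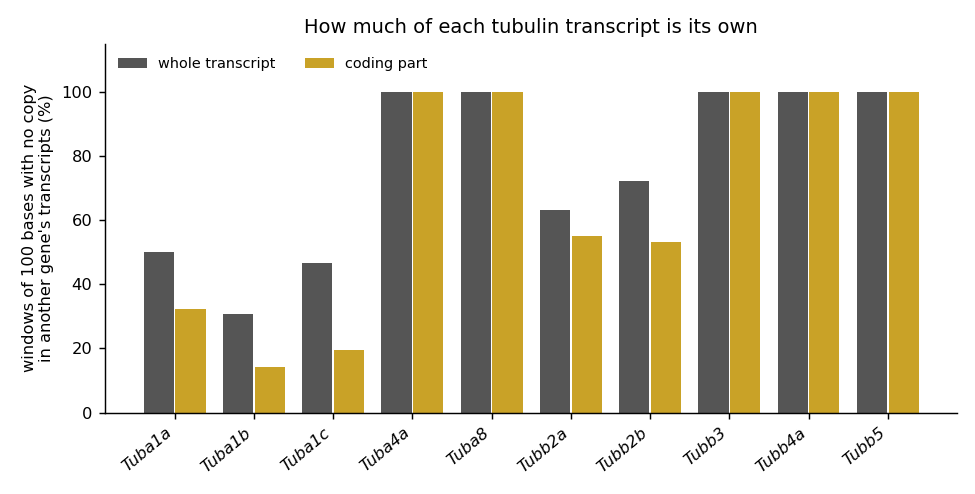
Share of windows of 100 bases without an identical copy in the transcripts of another gene, in percent, for each isotype, with the whole transcript in grey and the coding part in gold. Tuba1b has the least sequence of its own, 30.9% of windows and 14.2% in its coding part, while 5 isotypes stand at 100%.

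Tuba1c was the isotype with the largest fold difference between genotypes. The gene lies on chromosome 15 from 99029891 to 99038110 on the plus strand (GRCm38), beside Tuba1a at 98949837 to 98953703 and Tuba1b at 98931425 to 98934565, both on the minus strand. It had 1302, 1284 and 1116 reads in KO replicates 1 to 3, against 81, 77 and 18 reads in WT replicates 1 to 3. In CPM these were 33.8, 32.4 and 26.9 in KO and 2.35, 2.38 and 2.79 in WT. Every KO library was far above every WT library, and the shallow WT replicate 3 lay close to the other WT libraries. The lowest KO value, in replicate 3, had an exact 95% counting interval of 25.3 to 28.5 CPM, and the highest WT value, also in replicate 3, one of 1.65 to 4.41 CPM (counting error only, since copies made by PCR are not independent molecules). The means were 31.0 ± 3.63 CPM in KO and 2.51 ± 0.244 CPM in WT (SD, n = 3 each), a fitted log2 difference of 3.68 with a standard error (SE) of 0.13, or 12.8-fold. The log2 difference stayed between 3.61 and 3.77 when any 1 library was left out. Per 100 reads of Tuba1a there were 4.34 ± 0.513 reads of Tuba1c in KO and 0.274 ± 0.0314 in WT, a ratio within each library that does not depend on its depth or scaling.

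Tuba1a, the main alpha tubulin of developing neurons, differed in the other direction. It stood at 713, 715 and 715 CPM in KO replicates 1 to 3, against 908, 945 and 901 CPM in WT replicates 1 to 3. The KO libraries lay below all WT libraries and were almost equal among themselves. The means were 714 ± 1.23 CPM in KO and 918 ± 23.8 CPM in WT, a log2 difference of -0.36 (SE 0.06), which stayed between -0.37 and -0.34 without any 1 library. In absolute terms Tuba1a was 204 CPM lower and Tuba1c 28.5 CPM higher in KO than in WT. The summed CPM of the 3 Tuba1 genes was 955 ± 6.85 in KO and 1138 ± 53.1 in WT, again without overlap. Scaled by gene reads without Rn45s instead, this sum in WT replicate 3 lay within the range of the KO libraries.

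Tuba1b, a widely made alpha tubulin, stood at 201, 213 and 217 CPM in KO and 249, 229 and 173 CPM in WT. The WT libraries spread on both sides of the KO libraries. The log2 difference was -0.05 (SE 0.11), with an interval of 2 SE from -0.28 to 0.17. It was -0.18 without WT replicate 3 and 0.06 without WT replicate 1, so that its direction rests on single libraries.

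Tuba4a, on chromosome 1 from 75214228 to 75219865, is an alpha tubulin encoded without a terminal tyrosine. It stood at 305, 287 and 282 CPM in KO and 273, 296 and 246 CPM in WT. The groups overlapped, with a log2 difference of 0.10 (SE 0.07), which was 0.04 without WT replicate 3 and 0.17 without WT replicate 2. Stk16 overlaps Tuba4a on the opposite strand, so the column without strand held only 80.7% to 84.2% of the reads of the counted strand, while for the other 9 isotypes it held 100% to 100.5%. Reads on the opposite strand were at most 1.28% of the reads of both strands of any isotype.

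Tuba8, on chromosome 6 from 121210696 to 121226854, is a divergent alpha isotype of restricted expression. It stood at 34.7, 26.6 and 33.1 CPM in KO and 22.3, 26.8 and 32.1 CPM in WT. The spread within each genotype was as large as the difference between them, and the log2 difference was 0.25 (SE 0.14), between 0.13 and 0.36 without any 1 library.

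Among beta isotypes, Tubb3 and Tubb5 were higher in KO. Tubb3, the neuronal beta tubulin, lies on chromosome 8 from 123411424 to 123422015. It stood at 361, 373 and 358 CPM in KO and 319, 315 and 273 CPM in WT, and the groups did not overlap. The log2 difference was 0.26 (SE 0.07), and 0.20 without WT replicate 3, the lowest library. Tubb5, the broadly made beta tubulin, lies on chromosome 17 from 35833921 to 35838306. It stood at 354, 382 and 375 CPM in KO and 326, 310 and 294 CPM in WT, also without overlap, with a log2 difference of 0.25 (SE 0.06).

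Tubb2a and Tubb2b are neighbours on chromosome 13, at 34074274 to 34078007 and 34126748 to 34130466. Tubb2a stood at 310, 351 and 318 CPM in KO and 327, 307 and 290 CPM in WT. Tubb2b, needed for migration of young neurons, stood at 127, 116 and 117 CPM in KO and 132, 138 and 134 CPM in WT. Tubb2a overlapped between genotypes with a log2 difference of 0.08 (SE 0.07), which was 0.03 without KO replicate 2 and 0.13 without WT replicate 1. Tubb2b lay lower in CPM in every KO library than in any WT library, with a log2 difference of -0.16 (SE 0.06). Scaled by gene reads without Rn45s instead, Tubb2b in WT replicate 3 lay within the range of the KO libraries. There were 273 ± 28.6 reads of Tubb2a per 100 reads of Tubb2b in KO and 229 ± 16.2 in WT, and these ratios overlapped.

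Tubb4a, on chromosome 17 from 57080066 to 57087782, had the highest CPM of the beta isotypes in every library. It stood at 754, 740 and 653 CPM in KO and 728, 775 and 991 CPM in WT. WT replicate 3 was the highest of the 6 libraries, and the groups overlapped. The log2 difference was -0.21 (SE 0.11) over all libraries and -0.07 without WT replicate 3.

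**Figure D2:**
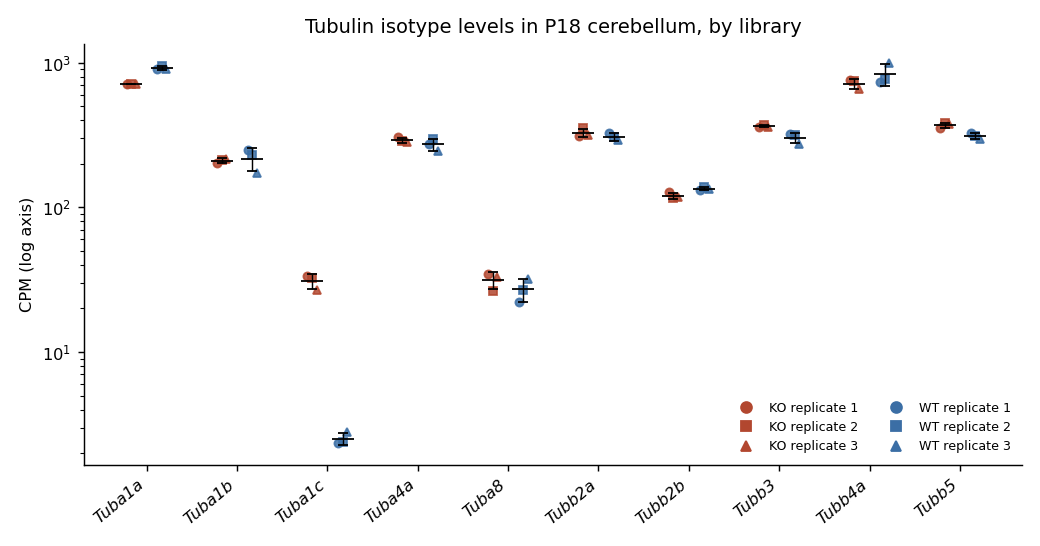
Level of each isotype in CPM on a log axis, with KO replicates 1 to 3 in red left of WT replicates 1 to 3 in blue; black bars are means with SD. Tuba1c at 26.9 to 33.8 CPM in KO and 2.35 to 2.79 CPM in WT is the widest gap on this log axis, while Tuba1b, Tuba4a, Tuba8, Tubb2a and Tubb4a overlap between genotypes.

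Counted together, 5 of the 10 isotypes (Tuba1a, Tuba1c, Tubb2b, Tubb3 and Tubb5) did not overlap in CPM between genotypes, beside 39.4% of all 15519 tested genes. In the quasi-likelihood fit of edgeR across all genes (adjusted p under 0.05), 4 of the 10 were called (Tuba1c, Tubb3 and Tubb5 higher and Tuba1a lower in KO), beside 16.7% of all tested genes, 6.43% called higher and 10.2% called lower. Because the same contrast chose the isotypes, nothing is read from these counts. The median log2 difference was 0.09 over the isotypes and -0.01 over all tested genes.

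Ordered by level per kilobase of exon, the isotypes followed the same order in both genotypes: Tuba1a, Tubb4a, Tubb2a, Tubb3, Tuba1b, Tubb5, Tuba4a, Tubb2b, Tuba8 and Tuba1c. Tuba1a led with 396 ± 0.679 CPM per kilobase in KO and 509 ± 13.2 in WT. At the low end, Tuba1c had 11.8 to 14.8 CPM per kilobase in KO and 1.03 to 1.22 in WT, and Tuba8 had 11.7 to 15.3 in KO and 9.86 to 14.2 in WT. In KO the ranges of Tuba8 and Tuba1c overlapped, as did those of Tubb2a with Tubb3 and of Tuba1b with Tubb5. In WT, of the neighbours in this order, Tuba1b and Tubb5 alone overlapped, and Tuba1c lay below Tuba8 in every library. The order also rests on the length used: by coding length, Tuba4a came before Tuba1b among the alpha isotypes in both genotypes, with 22.9% ± 0.798 against 16.4% ± 0.732 of the alpha pool in KO and 19.0% ± 0.810 against 15.0% ± 2.17 in WT. Among the beta isotypes, mean shares by coding length put Tubb5 before Tubb3 and Tubb2a. In that order they held 19.6% ± 1.02, 19.0% ± 0.412 and 17.2% ± 0.840 of the beta pool in KO. In WT they held 16.5% ± 1.52, 15.9% ± 1.99 and 16.4% ± 1.63.

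As shares of the summed reads per kilobase of the 5 alpha isotypes, Tuba1a made up 64.5% ± 0.174 in KO and 71.6% ± 2.25 in WT, without overlap. Tuba1c made up 2.21% ± 0.259 in KO and 0.155% ± 0.0226 in WT, and so remained a small part of the alpha pool in both. Tuba4a made up 12.8% ± 0.516 in KO and 10.3% ± 0.486 in WT, without overlap, although its own CPM overlapped. Tuba1b, at 18.2% ± 0.718 in KO and 16.2% ± 2.37 in WT, and Tuba8, at 2.26% ± 0.309 in KO and 1.69% ± 0.376 in WT, overlapped. Shares within a pool sum to 100%, so they do not move independently.

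Of the beta pool, Tubb4a made up 36.4% ± 1.78 in KO and 42.4% ± 5.41 in WT, with overlap. Tubb3 made up 22.1% ± 0.507 in KO and 18.5% ± 2.22 in WT, and Tubb5 12.6% ± 0.663 in KO and 10.6% ± 0.924 in WT, both without overlap. Tubb2a held 23.0% ± 1.09 in KO and 21.8% ± 2.07 in WT, and Tubb2b, the smallest of the 5, held 5.94% ± 0.359 in KO and 6.69% ± 0.314 in WT. With reads divided by the sequence each isotype has to itself, Tubb2a at 30.9% ± 1.31 stood beside Tubb4a at 30.3% ± 1.65 in KO, against 29.5% ± 2.41 and 35.6% ± 5.05 in WT. The values of WT replicate 3, with 48.5% for Tubb4a and 15.9% for Tubb3, widened the WT spread.

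**Figure D3:**
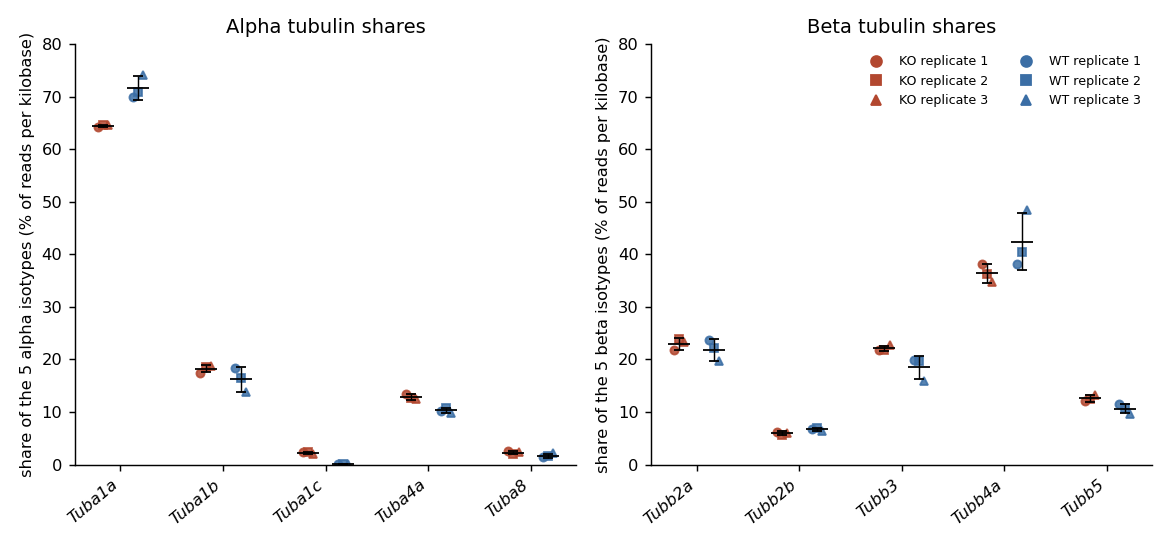
Share of each isotype in the summed reads per kilobase of the 5 alpha isotypes (left) and the 5 beta isotypes (right), in percent, with KO libraries in red left of WT libraries in blue and means with SD in black. Tuba1a holds 64.5% of the alpha pool in KO and 71.6% in WT, and Tubb4a holds 36.4% of the beta pool in KO and 42.4% in WT.

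The 5 alpha isotypes summed to 1278 ± 7.66 CPM in KO and 1436 ± 73.8 CPM in WT, without overlap. The 5 beta isotypes summed to 1896 ± 71.6 CPM in KO and 1887 ± 83.0 CPM in WT, with overlap. Without Rn45s, the 10 isotypes took 0.386% ± 0.00882 of gene reads in KO and 0.396% ± 0.0329 in WT. These shares overlapped, with WT replicate 3 the lowest at 0.358%. The ratio of alpha to beta reads per kilobase of exon was 0.697 ± 0.0283 in KO and 0.812 ± 0.0676 in WT. When reads were divided by the sequence that each isotype has to itself in windows of 100 bases, the ratio was 1.27 ± 0.0511 in KO and 1.48 ± 0.126 in WT. Whether alpha or beta reads prevail thus depends on that choice, while KO was below WT by either.

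In bulk tissue, fewer cells of a type and less RNA per cell cannot be told apart, and isotypes differ between cell types. The counts of markers below stand beside 6.43% of all tested genes called higher and 10.2% called lower in KO. Without WT replicate 3 these shares were 10.2% and 13.2%. Of 8 endothelial and mural markers 7 fell, with a summed level of 186 to 194 CPM in KO and 257 to 291 CPM in WT, and of 8 meningeal fibroblast markers 6 fell, with 552 to 653 CPM in KO and 668 to 925 CPM in WT. Of 10 Purkinje markers 4 rose (Calb1, Dner, Slc1a6 and Homer3) and none fell. Without WT replicate 3, the counts were 7 and 6 that fell and 2 that rose in these lists. Of 12 markers of mature granule neurons Vsnl1 rose and Gabra6, Car4, Kcnd2 and Pde1c fell (2008 to 2516 CPM in KO, 2285 to 2788 CPM in WT). Of 13 tested genes listed for migrating and newborn granule neurons Dcx and Top2a fell (1165 to 1341 CPM in KO, 1262 to 1461 CPM in WT). Top2a, like Mki67 in the same list, is a gene of dividing cells and is not particular to granule neurons. Without WT replicate 3, 1 mature granule marker rose and 2 fell, and 4 newborn granule markers fell; over all libraries left out in turn, 0 to 4 mature and 0 to 6 newborn markers fell. None of the 10 myelin markers passed by edgeR's test, with 31024 to 32955 CPM in KO and 24378 to 28196 CPM in WT, but 2 were higher in KO without WT replicate 3. Of 8 microglia markers Cx3cr1 rose (220 to 232 CPM in KO, 190 to 219 CPM in WT), of 8 Bergmann glia and astrocyte markers Slc1a2 rose and Fabp7 fell (5803 to 6380 CPM in KO, 5220 to 5406 CPM in WT), and of the 8 markers each of ciliated ependyma (37.4 to 43.0 CPM in KO, 39.1 to 40.9 CPM in WT) and choroid plexus (1867 to 2278 CPM in KO, 2030 to 2339 CPM in WT) none passed. Genes of the marker lists were named after their values were seen. The part of any of these lists in the tubulin differences was not tested.

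The other genes of the tubulin pathway, 99 listed by role, 97 found and 92 tested, gave shares of calls near those of all genes in the fit of all 6 libraries. By the same edgeR test 6 rose (6.52%, beside 6.43% of all tested genes) and 10 fell (10.9%, beside 10.2%), and 76 missed the threshold; the median log2 difference was -0.02. Without WT replicate 3 there were 16 that rose (17.2%, beside 10.2% of all tested genes) and 13 that fell (14.0%, beside 13.2%). The nearness of the share that rose to that of all genes therefore depends on this library. Of 6 other tubulin genes tested, 1 rose. This was Tubb4b, a widely made beta tubulin, at 231 ± 8.76 CPM in KO and 202 ± 3.93 CPM in WT (log2 0.19, SE 0.06, adjusted p = 0.047), a call that was lost without any 1 library other than WT replicate 3. Tubg1, the gamma tubulin of the nucleation ring, was at 33.4 ± 1.88 CPM in KO and 32.6 ± 1.61 CPM in WT, and Tubb6 at 2.06 ± 0.353 CPM in KO and 2.12 ± 0.321 CPM in WT. Neither passed the test.

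Among 21 genes for folding and assembly of the dimer, 1 rose and 1 fell, and without WT replicate 3 these counts were 5 and 1. Tbce, the cofactor that with others joins alpha to beta tubulin, fell to 17.3 ± 0.908 CPM in KO, against 29.7 ± 1.93 CPM in WT (log2 -0.77, SE 0.08, adjusted p = 0.000265), and kept its call without any 1 library. Tbcb, a cofactor that handles newly folded alpha tubulin, rose to 44.9 ± 1.19 CPM in KO, against 37.6 ± 1.12 CPM in WT (log2 0.25, SE 0.06, adjusted p = 0.0235). The call of Tbcb was lost without any 1 library other than WT replicate 3.

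Among 23 tested genes that modify the tail or a lysine of tubulin, 2 rose and 2 fell. Ttll3, a glycylase that starts glycine chains on the tail, fell to 9.81 ± 0.997 CPM in KO, against 17.5 ± 1.54 CPM in WT (log2 -0.84, SE 0.11, adjusted p = 0.000891). Ttll4, which starts glutamate chains mainly on beta tubulin, fell to 12.7 ± 1.10 CPM in KO, against 17.7 ± 0.690 CPM in WT (log2 -0.48, SE 0.09, adjusted p = 0.0072). Both calls held without any 1 library. Ttll1, the catalytic subunit of a neuronal glutamylase, and Tpgs2, a subunit of the same complex, rose by log2 0.29 (SE 0.08, adjusted p = 0.0406) and 0.24 (SE 0.06, adjusted p = 0.0253) in edgeR's test. The call of Ttll1 was lost without any 1 KO library or WT replicate 2, and that of Tpgs2 without any 1 library but WT replicate 3.

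Of 22 microtubule-associated proteins and stathmins, 1 rose and 1 fell, and without WT replicate 3 these counts were 5 and 2. Mapre1, which binds growing plus ends, rose by log2 0.26 (SE 0.06, edgeR adjusted p = 0.0154). Dcx, which stabilises microtubules in migrating neurons and also stands among the markers of newborn granule neurons above, fell (log2 -0.45, SE 0.10, edgeR adjusted p = 0.0161). Both calls were lost without KO replicate 2, KO replicate 3 or WT replicate 2.

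Of 16 genes for nucleation and severing, 1 rose and 5 fell, so that 31.2% were lower beside 10.2% of all tested genes. The number that fell ranged from 0 to 6 when 1 library was left out. The falling genes included Tubgcp4 and Tubgcp5, subunits of the gamma tubulin ring, with log2 differences of -0.31 (SE 0.07, edgeR adjusted p = 0.0138) and -0.32 (SE 0.07, edgeR adjusted p = 0.0112). Cdk5rap2, which anchors that ring at the centrosome, fell (log2 -0.45, SE 0.13, edgeR adjusted p = 0.0371), and Katnal1, a severing enzyme of the katanin family, rose by log2 0.22 (SE 0.06, edgeR adjusted p = 0.0324). Katna1, the katanin catalytic subunit (log2 -0.37, SE 0.11, edgeR adjusted p = 0.0423), and Mzt1, a small partner of the ring (log2 -0.24, SE 0.07, edgeR adjusted p = 0.0407), also fell and were named after their values were seen. None of the calls of the first 4 genes held without every single library: Tubgcp5 lost its call without KO replicate 1 or 3, Tubgcp4 without KO replicate 2 or 3 or WT replicate 2, Cdk5rap2 without any 1 KO library or WT replicate 2, and Katnal1 without any 1 library but WT replicate 3.

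**Figure D4:**
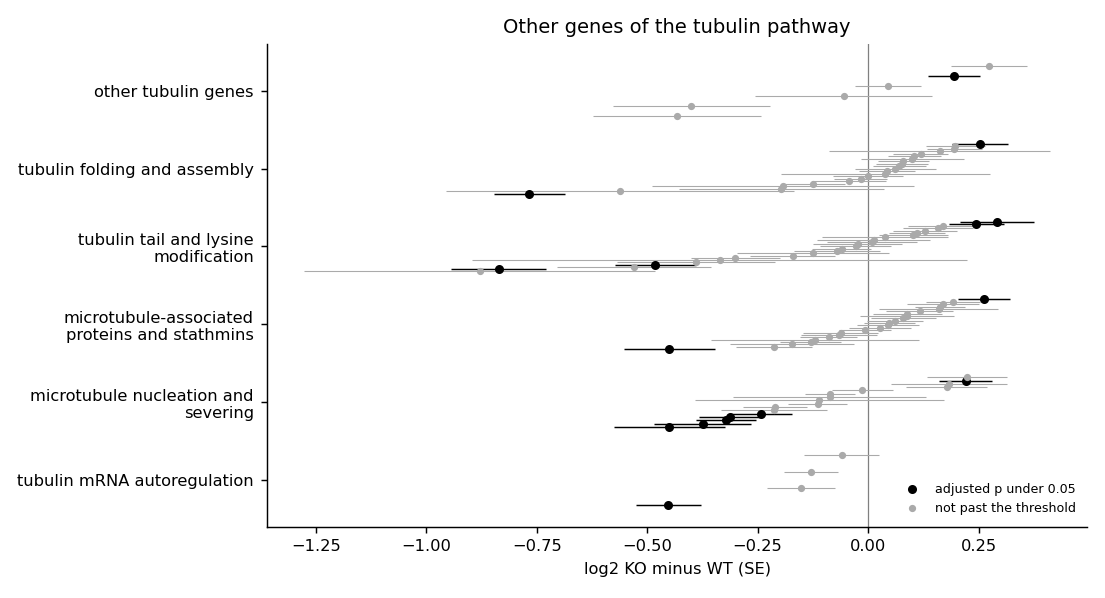
Log2 difference, KO minus WT, with SE for each of 92 other tested genes of the tubulin pathway, in 6 lists by role, with genes past the adjusted p threshold in black and the others in grey. Of all these genes 6 rose and 10 fell, with 5 of the 10 among nucleation and severing genes.

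Tubulin mRNA is known to be broken down when free tubulin is plentiful, through recognition of the first residues of the new chain, which begin alike within each kind. The coding sequence of Tuba4a opens with atgcgcgagTGC and that of Tubb5 with atgagggaaATC, where capitals mark the codon that separates the alpha from the beta isotypes. Of 4 genes of this pathway, 1 fell and none rose. Cnot10, a subunit of the deadenylase complex that shortens the tail of mRNAs, fell to 26.9 ± 1.73 CPM in KO, against 37.0 ± 1.03 CPM in WT (log2 -0.45, SE 0.07, edgeR adjusted p = 0.00305), and kept its call without any 1 library.

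The surroundings of Tuba1c were examined to place its difference on the chromosome. Within 500 kb of its midpoint, 29 other genes outside the Tuba1 cluster were tested, of which 3 rose (10.3%, beside 6.43% of all tested genes) and 1 fell (3.45%, beside 10.2%), with a median log2 difference of 0.07. Prph, which encodes the neuronal intermediate filament protein peripherin, is the nearest tested gene on one side, 23.1 kb away at 99055174 to 99058978. It rose to 21.4 ± 0.323 CPM in KO, against 12.5 ± 2.90 CPM in WT (log2 0.80, SE 0.15, edgeR adjusted p = 0.00769). The nearest tested gene on the other side, 4930578M01Rik, had 1.30 ± 0.184 CPM in KO and 1.66 ± 0.746 CPM in WT and did not pass. Arf3, a small GTPase of the Golgi, rose by log2 0.45 (SE 0.06, edgeR adjusted p = 0.000987), Faim2, an inhibitor of Fas-driven cell death, rose by log2 0.30 (SE 0.09, edgeR adjusted p = 0.0455), and Prpf40b, a splicing factor, fell (log2 -0.44, SE 0.09, edgeR adjusted p = 0.0113). The calls of Prph and Arf3 held without any 1 library, that of Faim2 was lost without any 1 KO library or WT replicate 2, and that of Prpf40b without KO replicate 1 or 3. None of these log2 differences came near the 3.68 of Tuba1c.

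**Figure D5:**
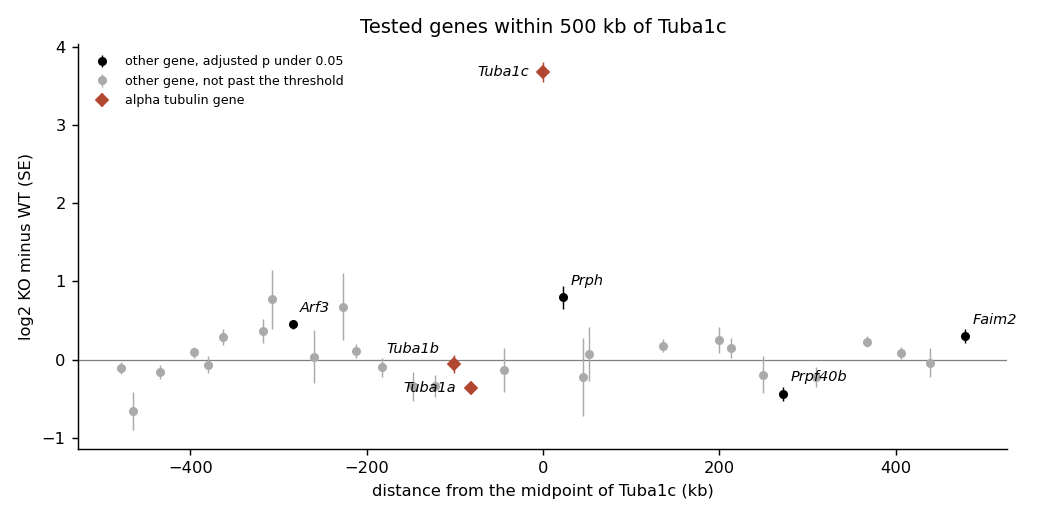
Log2 difference, KO minus WT, with SE for tested genes against the distance of their midpoint from that of Tuba1c in kb, with alpha tubulin genes as red diamonds, other genes past the adjusted p threshold in black and the remaining genes in grey. Tuba1c at 3.68 stands above all of them, and its nearest tested neighbour Prph at 23.1 kb is at 0.80.

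The gene whose centred log2 CPM profile over the 6 libraries was most like that of Tuba1c, among 13948 genes with a mean of at least 1 CPM, was Rprl2, a copy of the RNase P RNA gene, at a root mean square distance of 0.714 log2 units. Rprl2 stood at 2.60 ± 0.548 CPM in KO and 0.0613 ± 0.0824 CPM in WT. It passed the minimum level through its KO libraries only, and its WT values lay at the floor. Kirrel2, a cell adhesion protein, followed at 0.950, with 7.67 ± 1.57 CPM in KO and 2.28 ± 0.432 CPM in WT, and Adi1, an enzyme of methionine salvage, at 1.04, with 74.3 ± 1.26 CPM in KO and 25.9 ± 2.22 CPM in WT. Because Tuba1c was chosen for its difference between genotypes, genes near it in profile are ones higher in KO, and their order is a description only. The nearest profiles to Tuba8 were Fam107a at 0.0523, Grid2ip at 0.0664 and Car7 at 0.0691. Such distances grow with the spread of a profile, which is small for Tuba8, so they cannot be set against those of Tuba1c. Grid2ip, a partner of the delta glutamate receptor of Purkinje cells, stood at 62.7 ± 9.02 CPM in KO and 54.0 ± 9.69 CPM in WT, and shared with Tuba8 a low WT replicate 1 and a low KO replicate 2.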

How the data were processed

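Each of the 6 libraries has 1 deposited table of raw read counts per gene, made by the authors with Trimmomatic and STAR on mm10, per the submitters' processing notes; the sources used here give no versions, annotation, strand setting or batches. STAR counts a read for a gene only where it has 1 place in the genome. The heavier strand column, with 55.4 times the reads of the other, was used; 4 summary lines stayed out of library sizes.

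Of 24411 genes, 15519 passed edgeR's filterByExpr and 8892 did not. After TMM scaling, the quasi-likelihood test of edgeR 4.0.16 (robust, R 4.3.3) set KO against WT, with p-values adjusted by Benjamini-Hochberg across every tested gene and a threshold of 0.05. The SE is the log2 difference over the square root of F and is approximate. CPM used the scaled sizes; log2 CPM had a prior count of 2. The fit was tested on simulated counts with the same dispersion for all genes and no library of deviating profile. That test therefore does not cover a library such as WT replicate 3. Alternatives were DESeq2 1.42.0 and its size factors, other filters and columns, a replicate block and each library left out. Positions, exon lengths and sequences came from GENCODE M21 (GRCm38, the assembly mm10 denotes); those of 3 isotypes are not reported here.

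The isotypes, the 6 pathway lists and the 11 marker lists were chosen with earlier results of these data known. Named were all isotypes; per list up to 4 genes past the threshold by smallest p, plus Tubb4b, Tubb6 and Tubg1; neighbours of Tuba1c past the threshold and the nearest on each side; and the 3 profiles nearest Tuba1c and Tuba8. P-values measure the spread between replicates that the labels call independent.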

Additional observations from a re-analysis of the deposited data

How the results depend on the processing

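Genes higher in KO numbered 998, 252 with a replicate block and 245 to 1623 when a library was left out. Genes lower numbered 1587, 821 with the replicate block and 796 to 2096 when a library was left out. Pathway genes numbered 6 higher and 10 lower, 0 and 4 with the replicate block, and 0 to 16 higher and 4 to 13 lower when a library was left out. Without WT replicate 3, the 17.2% of pathway genes called higher stood beside 10.2% of all genes. Of the isotypes, 4 passed the threshold, 2 with the replicate block and 2 to 5 when a library was left out. Of all tested genes, 6.43% were called higher and 10.2% lower in the main fit, and 1.62% and 5.29% with the replicate block. These shares were 1.56% and 5.08% without KO replicate 3, and 10.2% and 13.2% without WT replicate 3. Nothing is read from the isotype counts. Near Tuba1c, 3 genes rose and 1 fell; within 250 kb these were 1 and 0, with the replicate block the lower count was 0, and it was 0 to 3 when a library was left out. Deviations of same-numbered KO and WT libraries correlated at -0.18, -0.14 and -0.10, so the numbers were not taken as pairs. The share of Tuba1c in the alpha pool was 2.05 points higher in KO, 2.25 by reads without length, 2.34 by unique windows and 2.26 by coding length. Each length is the same in KO and WT, and Tuba1c had the largest fold rise of the alpha isotypes. Its share was therefore bound to be higher in KO by each choice, and only the size of the difference could change. Tubb6 turned to 0.13 (log2) without regard to strand, a count that also holds its reads on the opposite strand (below). When a library was left out, Tubb6 lay between -0.19 and 0.12, and 4930578M01Rik, at -0.14, between -0.42 and 0.049 (without WT replicate 3). The cause of these changes on leaving a library out was not tested. Depth limits WT replicate 3, in which Tuba1c had 18 reads, and its profile also differed from the other WT libraries. With Rn45s left out, the chi-square of its gene counts per degree of freedom was 264 against WT replicate 1 and 254 against WT replicate 2. Between WT replicates 1 and 2 it was 8.68. Unmapped reads made up 18.2% of WT replicate 3 and 5.97% to 7.55% of the other libraries.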

Other observations

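Tubb6, a tubulin of low level here, had more reads on the strand opposite to its own than on its own: 175, 165 and 185 opposite reads in KO replicates 1 to 3, against 147, 129 and 15 in WT replicates 1 to 3. Reads on its own strand numbered 64, 86 and 97 in KO and 64, 80 and 13 in WT. Tuba3a, a testis alpha tubulin, was at 0 reads in all 6 libraries.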
